A study of Mus musculus with 2 samples.

Results

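The 10 genes described here encode the small MAF proteins (Maff, Mafg and Mafk), subunits of the transcription factor AP-1 with a close relative (Jun, Jund, Fosb, Fosl1 and Atf3), and the factors NRF2 (Nfe2l2) and BACH1. They were taken by name, as every probe set of the array annotated with exactly 1 of these symbols, which gave 16 of 34945 probe sets and 10 of 18193 genes. The members were chosen by gene family with the signals of these same arrays known, Maff having been seen among the genes with the highest shSin3a-1 to shCtrl ratios, so the values below describe the set and test nothing. RNA came from E14 cells, a line of mouse embryonic stem cells grown on gelatin in serum with leukemia inhibitory factor. One culture carried a lentiviral non-targeting shRNA (shCtrl) and the other shSin3a-1, a lentiviral shRNA against Sin3a, and both had been selected with puromycin. Sin3a encodes the scaffold of a histone deacetylase complex, and the comparison asks which transcripts differ when it is depleted. With 1 array per group and 1 shRNA sequence per target, there is no replicate error, no p-value, and no way to tell the effect of the shRNA from that of the culture.

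Proteins of these families are basic leucine zipper factors, which bind DNA as dimers. Small MAF proteins lack an activation domain: as homodimers they repress, and as partners of NRF2 they activate genes of detoxification and glutathione metabolism through antioxidant response elements. BACH1 pairs with the same small MAF proteins and represses many of these genes until heme releases it. AP-1 is a family of dimers of JUN proteins with FOS or ATF proteins, and several of its genes are induced within minutes of serum, growth factors or stress. NRF2 itself is controlled mainly by degradation of the protein, through the adaptor KEAP1, so its messenger RNA level is not a measure of its activity.

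The values are MAS5 signals on a linear scale, as deposited, and a difference is the log2 signal of shSin3a-1 minus that of shCtrl. To be kept, a probe set had to reach the 60th percentile of signals on at least 1 array, which was 131 for shCtrl and 126 for shSin3a-1. Below the 40th percentile (46.8 and 41.7) a value was set to that percentile, here called the floor, and a fold against it is a lower bound. A gene with several probe sets is counted by the brightest of them on average, which left 9782 kept genes. The array does not allow levels to be compared between different probe sets. Sin3a, the target of the shRNA, read 3072 on the shCtrl array and 534 on the other (log2 difference -2.52), and its other probe sets differed by -2.41 and -1.73. The 8 embryonic stem cell markers examined, among them Pou5f1 and Nanog, were all kept and within 2-fold by brightest probe set. Their median difference was 0.00. The probe sets of Esrrb disagreed, at -0.26 in the brightest and 1.07 and -0.72 in the others. The ratio of 3' to 5' signal was 0.824 and 0.809 for GAPDH and 1.46 and 1.33 for beta-actin (shCtrl and shSin3a-1).

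Of the 10 genes, 7 were kept, and Maff was the only kept gene of the set at 2-fold or more. Over all kept genes 1.70% were higher and 2.79% lower by 2-fold or more. With each array centred on its median these shares were 2.43% and 2.01%. The other 6 kept genes lay within 1.5-fold, as did 83.4% of all kept genes. The median difference of the 7 was -0.15, against -0.03 for all kept genes (-0.04 and 0.07 with median centring), with 3 above 0 and 4 below, where 54.2% of all kept genes were below 0. By probe set, 8 of the 16 were kept and 1 was higher by 2-fold or more, with none lower, against 3.48% higher and 2.58% lower over 17086 kept probe sets. Of the 8 probe sets that were not kept, 4 lay under the floor on both arrays.

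**Figure D1:**
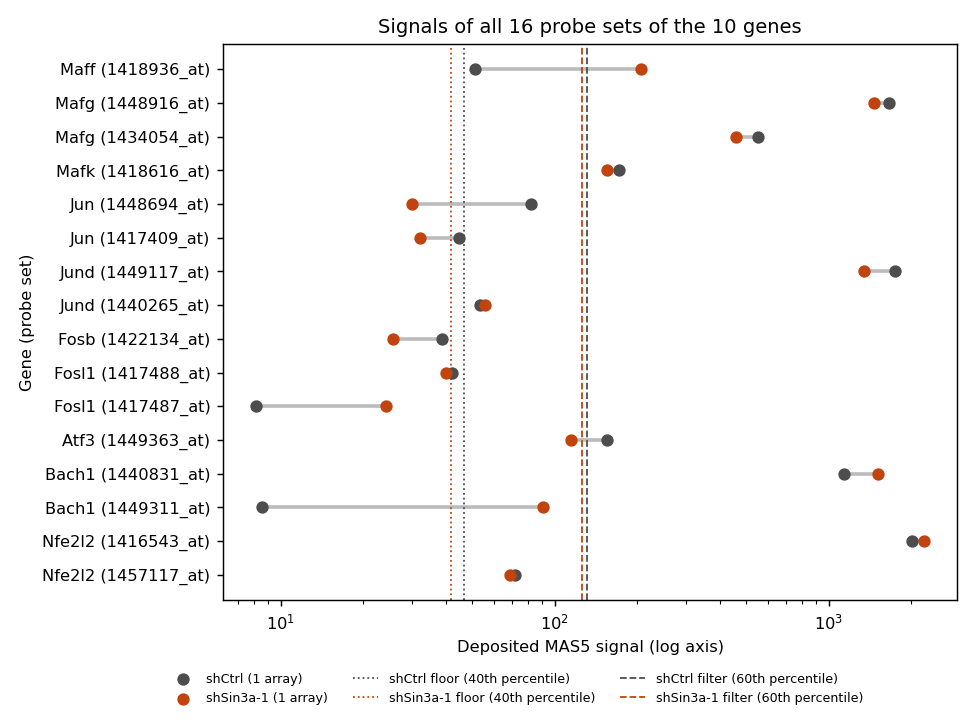
Deposited MAS5 signal on a log axis for each of the 16 probe sets (rows), with 1 point for the shCtrl array and 1 for the shSin3a-1 array; vertical lines mark the floor (dotted) and the filter (dashed) of each array. Maff moves from near the floor (51.3) to above the filter (206), the bright probe sets of Mafg, Jund, Bach1 and Nfe2l2 have paired points close together, and the probe sets of Jun, Fosb and Fosl1 lie below the filter on both arrays.

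Maff, the stress- and cytokine-inducible small MAF gene, read 51.3 on the shCtrl array and 206 on the shSin3a-1 array. It was 4.01-fold higher in the knockdown, a log2 difference of 2.00. Of 9782 kept genes 9, Maff included, had a difference or lower bound this large, and genes at the floor with smaller bounds may belong with them. The control value stood at the 42.3 percentile of its array, just over the floor, and the knockdown value at the 66.6 percentile. Maff has 1 probe set, so no second probe set bears on the difference. It also passed the filter through the shSin3a-1 array alone, as did 295 kept genes in all, and 80 of the 166 genes higher by 2-fold or more. Genes this dim differed more often: of 2690 genes with a brighter value between the 60th and 75th percentiles, 3.72% were higher and 7.03% lower by 2-fold or more. When the floor was raised to the 50th percentile the control value fell under it, and Maff was at least 2.86-fold higher. When the mean of both arrays had to reach the filter, Maff was not kept.

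The windows before the annotated start sites of Maff are shown because it is the gene that differed, and those of its paralogs Mafg and Mafk because they did not reach 2-fold. RefSeq (GRCm38.p6) lists 3 start sites for Maff, and each window is the 250 bases before a start, read 5' to 3' on the gene's strand. Exon positions were not used here, so a window of a later Maff start may overlap an exon of a transcript that starts earlier. Capitals mark matches to TGANTCA (an AP-1 site), TGACGTCA (a cyclic AMP response element, also bound by JUN and ATF dimers) or TGACNNNGC (the core of an antioxidant response element), searched on both strands. The array probes sit near the 3' end and do not tell which start was used.
Maff start 1, chr15:79346371-79346620, plus strand: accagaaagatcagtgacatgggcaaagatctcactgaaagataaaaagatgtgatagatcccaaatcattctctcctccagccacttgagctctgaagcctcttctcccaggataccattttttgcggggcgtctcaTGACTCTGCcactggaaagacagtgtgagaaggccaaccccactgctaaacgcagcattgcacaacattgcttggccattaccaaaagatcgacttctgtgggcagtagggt
Maff start 2, chr15:79347270-79347519, plus strand: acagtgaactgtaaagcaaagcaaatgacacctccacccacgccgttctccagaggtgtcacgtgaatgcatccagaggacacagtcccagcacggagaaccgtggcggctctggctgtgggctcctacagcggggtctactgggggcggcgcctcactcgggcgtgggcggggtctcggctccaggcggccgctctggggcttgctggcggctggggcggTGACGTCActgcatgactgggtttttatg
Maff start 3, chr15:79348152-79348401, plus strand: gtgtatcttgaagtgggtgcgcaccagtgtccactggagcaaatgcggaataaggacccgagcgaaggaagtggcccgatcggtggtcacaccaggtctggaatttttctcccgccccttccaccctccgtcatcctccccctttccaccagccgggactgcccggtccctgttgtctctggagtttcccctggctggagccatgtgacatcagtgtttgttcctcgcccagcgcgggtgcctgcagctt
Mafg, chr11:120633548-120633797, minus strand: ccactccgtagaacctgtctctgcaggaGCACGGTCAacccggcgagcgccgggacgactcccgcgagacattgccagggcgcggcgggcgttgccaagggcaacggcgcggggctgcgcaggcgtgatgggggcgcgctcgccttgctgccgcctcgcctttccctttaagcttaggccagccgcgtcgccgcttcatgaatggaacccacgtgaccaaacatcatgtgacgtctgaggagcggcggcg
Mafk, chr5:139791286-139791535, plus strand: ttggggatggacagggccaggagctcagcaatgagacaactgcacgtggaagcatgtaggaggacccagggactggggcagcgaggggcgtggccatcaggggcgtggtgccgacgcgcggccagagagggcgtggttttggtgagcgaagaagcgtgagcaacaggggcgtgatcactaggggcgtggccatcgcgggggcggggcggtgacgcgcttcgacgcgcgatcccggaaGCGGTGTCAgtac

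The window of the second Maff start held TGACGTCA, from 29 to 22 bases before the start. Windows with this motif made up 1.55% of the 32851 windows of all genes. The first Maff window held TGACTCTGC, a match to TGACNNNGC, 112 to 104 bases before the start, and the third held none of the motifs. Mafg and Mafk each had 1 match to TGACNNNGC, on the reverse strand and therefore printed as GCACGGTCA and GCGGTGTCA. Over all members, 4 of the 9 genes with a window (Maff, Mafg, Mafk and Nfe2l2) matched TGACNNNGC, a motif found in 11.5% of 27025 genes. None of the 9 matched TGANTCA, found in 7.82% of genes. These matches describe letters in a window and not binding. In base composition, 9 of the 11 windows were at or above the median GC content of all windows, 52.4%. The exceptions were the first Maff window (48.0% GC) and that of Jund (47.6%).

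Mafg and Mafk, the other small MAF genes, were slightly lower in the knockdown. In its brighter probe set Mafg read 1657 with shCtrl and 1456 with shSin3a-1 (log2 difference -0.19). Its other probe set read 552 and 460 (-0.26). Both probe sets of Mafg thus lay on the same side of 0, at 87.9% and 83.3% of the control signal. Mafk was measured by 1 dim probe set, with 171 in shCtrl and 154 in shSin3a-1 (-0.15). For scale, the differences of probe sets of 1 gene scattered with an SD of 0.39 over 4413 genes with several kept probe sets. That SD is a spread between probe sets on the same arrays, pools bright and dim genes, and is not a replicate error. The differences of Mafg and Mafk were smaller than it, and that of Maff was larger.

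**Figure D2:**
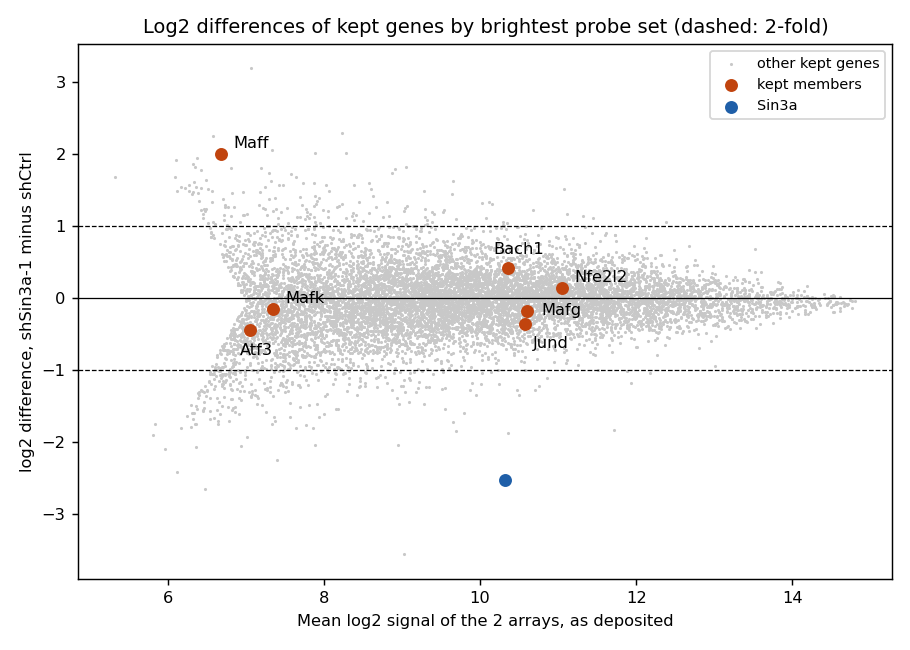
Log2 difference (shSin3a-1 minus shCtrl) against the mean log2 signal of the 2 arrays for the 9782 kept genes by brightest probe set (grey), with the 7 kept members in orange and Sin3a in blue; dashed lines mark 2-fold. Maff (2.00) sits at the dim, wide end of the cloud above 2-fold, and the other 6 members lie between -0.45 (Atf3) and 0.41 (Bach1).

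Among the JUN genes, Jund was well measured and Jun was not. Jund, which encodes an AP-1 subunit present in most resting cells, read 1736 with shCtrl and 1348 with shSin3a-1 (-0.37) in its brighter probe set, 77.6% of the control. Its second probe set, under the filter on both arrays, read 53.3 and 55.6 (0.06). Jun, the founding AP-1 gene, did not reach the filter in either probe set. The brighter one read 82.2 in shCtrl and 30.2 in shSin3a-1, the latter under the floor, which makes it at least 1.97-fold lower. Its other probe set read 44.65 and 32.3, under the floor on both arrays, so no fold is given. Both Jun probe sets read lower in the knockdown, at signals where MAS5 values scatter widely.

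The FOS members of the set were at or under the floor. Fosb, an inducible partner of JUN proteins, read 38.8 in shCtrl and 25.6 in shSin3a-1. Fosl1, which encodes FRA-1, read 42.3 and 39.95 in 1 probe set and 8.15 and 24.2 in the other. All of these values were under the floor of their arrays, and no difference is given for either gene. Such readings do not show that the genes are silent, only that these probe sets did not rise over the dim end of the array.

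Atf3, a stress-induced partner of JUN proteins, was measured by 1 dim probe set. It read 156 with shCtrl and 114 with shSin3a-1 (-0.45), or 73.4% of the control. The control value passed the filter and the knockdown value did not. This was the lowest difference among the 7 kept members. It was just over the probe set SD of 0.39, whereas Maff, also stress-inducible, differed in the opposite direction.

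Bach1 was higher in both probe sets, by amounts that could not be measured equally well. The bright probe set read 1137 in shCtrl and 1509 in shSin3a-1 (0.41), a 1.33-fold difference. The dim one, which did not reach the filter on either array, read 8.53 and 90.2. With the control value below the floor, it was at least 1.93-fold higher. When the log2 signals of both probe sets were averaged without a floor, Bach1 had a difference of 1.91, which the value of 8.53 sets by construction. The difference of the bright probe set was 0.37 to 0.52 under the other alternatives.

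Nfe2l2, the gene of NRF2, had high and similar signals. Its bright probe set read 2019 in shCtrl and 2225 in shSin3a-1 (0.14), at the 91.2 and 91.8 percentiles of the arrays. The dim probe set read 71.7 and 68.4 (-0.07). The probe sets lay on either side of 0, and both differences were smaller than the probe set SD.

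The scaling of the arrays did not change the direction of any kept member. With the median of each array, its 75th percentile, quantile or loess scaling in place of the deposited scaling, Maff ranged from 1.99 to 2.11, and Mafg, Mafk, Jund and Atf3 were below 0 and Bach1 and Nfe2l2 above it each time.

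**Figure D3:**
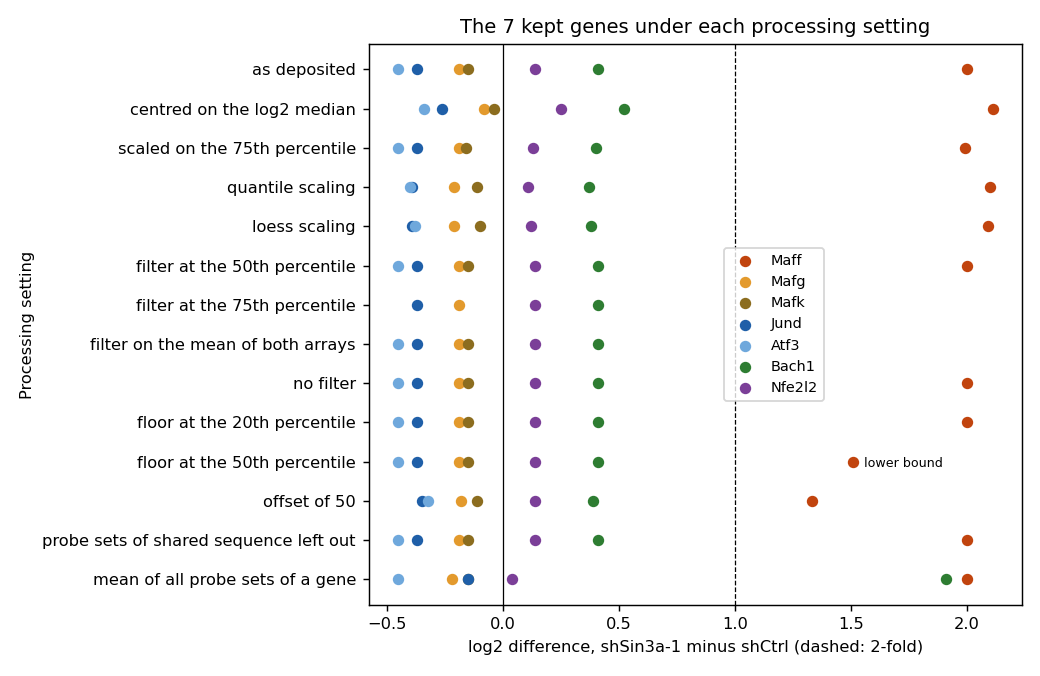
Log2 difference (shSin3a-1 minus shCtrl) of the 7 kept members (colours) under the deposited values and 13 other processing settings (rows); a missing point means that the gene did not pass that filter, and the dashed line marks 2-fold. Maff lies between 1.33 and 2.11 where it is kept and is absent with the filter at the 75th percentile or on the mean of both arrays, while Bach1 leaves its place near 0.41 only in the mean of all probe sets, where Mafk lies under the point of Jund.

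Other genes of these pathways were examined as lists. Their counts past 2-fold are to be read beside 1.70% higher and 2.79% lower over all kept genes. Among 7 other AP-1 genes, 4 were kept and Fos alone was higher by 2-fold or more. Fos, the prototype serum-induced partner of JUN proteins, read 74.7 with shCtrl and 178 with shSin3a-1 (1.26), with its control value under the filter, as for Maff. Junb, another serum-induced gene, read 206 and 276 (0.42), and Batf3, a dimer partner of JUN proteins, read 292 and 201 (-0.54). Junb and Batf3 are named after their values were seen. Fosl2, Batf and Batf2 did not reach the filter, nor did the large MAF genes Maf and Nrl. Of the 4 other CNC and BACH genes, Nfe2l1, which encodes the NRF2 relative NRF1, was the only one kept, at 2114 and 2017 (-0.07, and 0.04 with median centring).

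Immediate early genes, which serum and growth factors induce along with Fos, had a median of 0.26 over 10 kept of 13 (0.37 with median centring). Ier5, an immediate early gene, was at the floor in shCtrl (40.7) and at 164 in shSin3a-1, at least 3.51-fold higher, in 1 of 3 probe sets, and the others were under the floor on both arrays. Egr1, a zinc finger factor named after its value was seen, read 445 and 760 (0.77). Ier3 (-0.44), Klf6 (-0.28), Nr4a1 (-0.12) and Srf (-0.02) were below 0, so that members of this list lay on both sides. Maff, Fos and Ier5 shared a dim control value, and all 3 were over 2-fold under each of the 5 scalings.

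In the list of ATF, CREB and CEBP genes 11 of 17 were kept, and 8 of these lay below 0, against 54.2% of all kept genes. Their median was -0.20, and -0.09 with median centring. Creb1 (-0.13) and Creb3 (-0.11) counted below 0 by brightest probe set. Their other kept probe sets were above it, from 0.24 to 0.94 for Creb1 and at 0.14 and 0.11 for Creb3. Atf2 also counted below 0 (-0.47), and its other kept probe sets gave -0.40, 0.07 and 0.25. Atf6 (0.06) and Xbp1 (0.03) counted above 0, and each had a kept probe set below it (-0.12 and -0.06). Atf5, a stress-responsive relative of Atf4, was the single gene past 2-fold, with signals of 235 and 115 (-1.03). Atf5 passed the filter through the shCtrl array alone. It fell short of 2-fold with median centring (-0.92), quantile (-0.99) and loess scaling (-0.98), and with loess scaling Cebpd was also kept, at 1.43; as deposited it read 49.98 and 125 (1.33), with the shSin3a-1 value just under the filter. Atf4, the main factor of the amino acid response, read 5965 and 4059 (-0.56) in its brightest probe set and -0.64 in another; it was named after its values were seen.

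By brightest probe set, the list of genes that control NRF2 and BACH1 protein had no member past 2-fold among 9 kept of 10. Its median was -0.02, and 0.09 with median centring. Gsk3b read -0.10 in its brightest probe set, but -1.37 in a dimmer kept one (184 and 71.1). Its other kept probe sets gave 0.06 to 0.46. Keap1, the adaptor through which NRF2 is degraded, differed most by brightest probe set. Its brighter probe set read 698 in shCtrl and 508 in shSin3a-1 (-0.46), but its second read 150 and 185 (0.31), so that its probe sets disagreed in direction. Sqstm1, a KEAP1-binding autophagy receptor and itself an NRF2 target, read 2367 and 2996 (0.34) and was named after its value was seen.

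NRF2 target genes were as often above 0 as below it. Of 34 listed genes 28 were kept, 14 above and 14 below 0, with a median of 0.01; with median centring 19 lay above 0 and the median was 0.12. By brightest probe set none was higher by 2-fold or more and 2 were lower, both glutathione S-transferases. Over all kept genes 1.70% were higher and 2.79% lower by 2-fold or more. Gstm5 read 827 with shCtrl and 334 with shSin3a-1 (-1.31) in 1 probe set. Gsta3 read 156 and 69.9 (-1.16), and its second probe set, under the filter, read 65.0 and 42.3 (-0.62). Gsta3 thus passed the filter through the shCtrl array alone. Of kept genes with a brighter value between the 60th and 75th percentiles, 7.03% were lower by 2-fold or more. Gstm5 and Gsta3 stayed past 2-fold under each of the 5 scalings. Of the same family, Gstm1 read -0.64 in its brightest probe set and -1.26 in another kept one (268 and 112). Gstp1 read -0.49 and Gsta4 0.04. These 3 were named after their values were seen. The quinone reductase gene Nqo1 (785 and 759, -0.05) and the heme oxygenase gene Hmox1 (469 and 469) read nearly alike on both arrays. Gclm, the modifier subunit of glutathione synthesis, did so in its brightest probe set (2422 and 2464, 0.02). Its other probe set, also kept, read 353 and 481 (0.45). Gclc, the catalytic subunit, read -0.16 in its brightest probe set and 0.45 in another. Txnrd1, the cytosolic thioredoxin reductase gene, read 6040 and 6163 (0.03) where it was brightest, whereas dimmer probe sets gave 1.58 (278 and 830) and 0.78 (160 and 274). These 5 genes, the best known NRF2 targets, were named whatever their values but after they were seen.

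**Figure D4:**
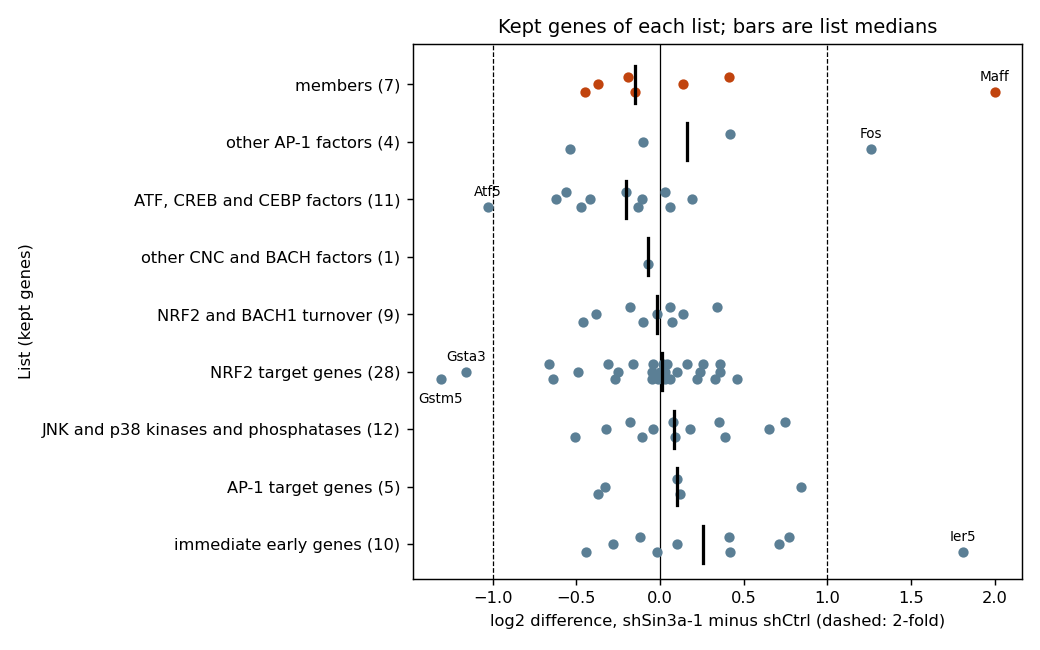
Log2 difference (shSin3a-1 minus shCtrl) of each kept gene by brightest probe set, for the members (orange) and 8 lists of related genes (blue), with the number of kept genes beside each name, black bars at list medians and dashed lines at 2-fold. Maff, Fos and Ier5 lie to the right of 2-fold and Atf5, Gstm5 and Gsta3 to the left, and list medians run from -0.20 to 0.26.

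Of 19 genes of the JNK and p38 pathways, which act upstream of JUN proteins, 12 were kept, none past 2-fold by brightest probe set. Their median was 0.09, and 0.19 with median centring. Dusp1, an inducible phosphatase of these kinases, differed most, with signals of 410 and 688 (0.75). Mapk8, which encodes JNK1, read 921 and 981 (0.09) in its brightest probe set, and its 4 other kept probe sets gave differences from -0.15 to 0.96. Mapk14, which encodes p38 alpha, read 2810 and 2734 (-0.04) in its brightest probe set, but 3 dimmer kept ones were higher, at 0.72, 0.87 and 1.60, the last with signals of 76.1 and 231. Mapk8 and Mapk14 were named after their values were seen. Of 16 AP-1 target genes 14 had a probe set and 5 of these were kept, none past 2-fold, with a median of 0.10 that was 0.21 with median centring. Hbegf, an EGF-family growth factor gene, differed most, at 687 and 1231 (0.84) in 1 probe set and 614 and 713 (0.22) in the other. The matrix metalloproteinase genes Mmp3, Mmp9, Mmp10 and Mmp13, standard AP-1 targets of fibroblasts, did not reach the filter.

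Markers of other cell types also differed between the arrays. In bulk RNA a change in the share of cells of a type and a change in RNA per cell cannot be told apart. All 7 kept genes of 9 primitive endoderm markers were above 0 (median 0.61), where 54.2% of all kept genes were below 0. Gata6, Sox17, Sox7 and Pdgfra passed the filter through the shSin3a-1 array alone, which favours differences above 0. Dab2 (0.68), Lama1 (0.61) and Col4a1 (0.51) passed it on both arrays. The summed signal over all 9 markers was 2036 in shCtrl and 3235 in shSin3a-1. It was carried mostly by Lama1 (802 and 1228) and Col4a1 (673 and 957). Sox17 (at least 4.73-fold) and Pdgfra (1.16) passed 2-fold in 1 probe set each. The second Sox17 probe set was at least 1.67-fold higher, and the other Pdgfra probe sets were below the floor throughout. Gata4 and Foxa2 did not reach the filter, and every marker was over the floor of at least 1 array. The 8 trophectoderm markers had summed signals of 2906 and 1566, carried mostly by the 3 kept genes Tfap2c (-1.25), Krt18 (-1.23) and Krt8 (-0.84). The other probe sets of Tfap2c gave -0.75 and -0.48, and those of Krt8 -0.52 and -1.85. The other 5 genes did not reach the filter, and of these Cdx2 was at least 1.49-fold higher in 1 probe set. Eomes read 0.09 in its brighter probe set and was at least 2.14-fold higher in the other. Krt7 read 0.08 and Hand1 -0.11. The 8 fibroblast markers summed to 541 and 346. Pdgfrb (203 and 89.0, -1.19) was past 2-fold in 1 probe set, and its other probe set was under the floor on both arrays. Thy1 was at -0.63 (161 and 104), and Col1a1, Col1a2 and Col3a1 did not reach the filter. Pdgfrb and Thy1 passed the filter through the shCtrl array alone, which favours differences below 0. The part of such cells in the differences of Maff, Fos and the glutathione S-transferases was not tested.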

How the data were processed

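Labelled RNA from 1 shCtrl and 1 shSin3a-1 culture was measured on an Affymetrix 3' expression array, and samples were grouped by the shRNA in the labels. The deposited values are linear intensity signals, and the submitters' processing notes name MAS5 and Affymetrix Expression Console. No settings or versions are named in the sources used here. Both arrays had a trimmed mean of 500 (2% left off at each end). Detection calls were not used, and the number of arrays limits the precision.

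Probe sets were named from the platform annotation, with symbols updated by Entrez ID through the RefSeq table of GRCm38.p6 (34741 of 34945 matched). Control probe sets (64) were left out. The deposited scaling was kept and log2 taken. The all-probe-set medians differed by -0.11 (shSin3a-1 minus shCtrl), but near background, while the 75th percentiles differed by 0.0077, the 45 spike-in probe sets by a median of -0.011 and kept genes by -0.03, so median centring served as an alternative. The filter was the 60th and the floor the 40th percentile, and no test was possible. Where the floor turned a difference against its unfloored sign, none was given.

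The genes named are Sin3a, the members, and from each list up to 2 kept genes per direction past 2-fold, or else the one that differed most; others are stated or serve as markers. Members and lists were chosen with earlier results of these data known. Alternatives were other scalings, filters, floors, thresholds, an offset of 50 before log2, the mean of probe sets, and leaving out probe sets of shared sequence. Windows of 250 bases came from RefSeq promoters. The procedure was tested on simulated data in which only bright genes were changed, so that test does not bear on dim genes such as Maff. Python 3.11.15, numpy, pandas and statsmodels were used.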

Additional observations from a re-analysis of the deposited data

How the results depend on the processing

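Of 171 values under 15 alternatives, 163 stayed near the reported one. Near means within the probe set SD of 0.39 for a difference or within 1.5 times for a count. Many could not move, since a filter cannot alter the difference of a gene it keeps, nor a floor that of a gene above it. The SD exceeds the reported differences of Mafg, Mafk, Jund and Nfe2l2, so being near does not bear on their direction. A setting that dropped Maff gave no value for its difference. The number of member genes higher by 2-fold or more, 1 as reported, was 0 under a 75th percentile filter and 0 with the filter on the mean of both arrays, since Maff is then not kept, and 2 when a gene's probe sets were averaged, where Bach1 joins it at 1.91. The number of member probe sets higher by 2-fold or more was likewise 0 under these 2 filters. No alternative gave a member lower by 2-fold or more. For Jun the settings fixed this. It was under the filter in most of them, and where a looser filter or none kept it, the floor held it at 1.97-fold lower. Maff was at 1.51 (a lower bound) with the floor at the 50th percentile and at 1.33 with the offset of 50. The median difference of the member genes ran from -0.17 to -0.02 and that of Sin3a from -2.55 to -2.22. Signal over background limits Maff, Jun, Fosb, Fosl1 and the dim probe sets. No paired analysis was possible because each group had 1 array.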
